A study of Rattus norvegicus with 13 samples.

Results

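Oxidative phosphorylation is carried out in the inner mitochondrial membrane by 5 protein complexes. Complexes I (NADH dehydrogenase) and II (succinate dehydrogenase) pass electrons from nutrients to ubiquinone, complex III (the cytochrome bc1 complex) passes them to cytochrome c, and complex IV (cytochrome c oxidase) passes them to oxygen. Complexes I, III and IV pump protons, and complex V (ATP synthase) uses the proton gradient to make ATP. Complex II is built from nuclear genes alone, whereas the others also hold subunits encoded in mitochondrial DNA. Neurons depend heavily on this pathway for ATP.

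The nuclear genes of these complexes were taken from the expression table by symbol (Nduf followed by a, b, c, s or v and a number, the Sdh genes, and symbols starting with Uqcr, Cox4 to Cox8 or Atp5). Of 17366 rows in the table, 80 matched, with 79 symbols. Where a symbol had several rows, the row with the highest mean was used, and a mean of at least 0.5 FPKM over all rats was required. This left 77 genes, 34 of complex I, 4 of complex II, 7 of complex III, 15 of complex IV and 17 of complex V. The lowest gene kept was Cox8b, with a mean of 0.961 FPKM. The symbols not kept were Cox8c, a further isoform of complex IV, with a mean of 0.0279 FPKM, and Cox6c-ps1, listed at 0. FPKM is the fragments of a transcript divided by its length and by the fragments sequenced, which adjusts levels for both. Among the 77, Cox4nb, Atp5s and Atp5sl matched by name but are called Emc8, Dmac2l and Dmac2 in RefSeq and are not counted as subunits, and Cox7a2l is a factor for assembling supercomplexes. Ndufa4 is today assigned to complex IV but is kept under its symbol here.

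RNA came from the whole hypothalamus of 13 rats. Of these, 7 ate a standard laboratory chow (0.30% fructose) and 6 a high-fructose diet (55% fructose) from postnatal day 25. The rats lived in pairs. They were fasted overnight at day 79 and decapitated on day 80, 1 h after glucose (2 g/kg) or saline was injected into the abdomen. The labels count 31 rats given glucose and 29 given saline, more than were sequenced, and which injection each sequenced rat received was not available to enter any test. Strain, sex and cage entered no test, and since cage mates are not known, p-values measure the spread between these rats as if each were independent.

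The total FPKM lay between 565653 and 608058 in chow rats and between 556902 and 589821 in fructose rats, and the read depth is unknown. The peptide gene Pmch, known from the lateral hypothalamus, ranged from 1345 to 7136 FPKM, while Npy was listed at 0 in all rats. Of 12 markers of midbrain dopamine neurons 12 were higher on fructose by limma (a linear model fitted across all rows, adjusted p under 0.05), and their summed level was 85.9 to 119 FPKM on chow and a median of 379 and a lowest value of 221 FPKM on fructose. Of 12 thalamus markers 8 were lower and 1 higher, with median sums of 882 FPKM on chow and 633 FPKM on fructose. Of 5 tested blood cell markers 4 were higher, with sums of 182 to 463 FPKM on chow and 373 to 1632 FPKM on fructose. Of 8 astrocyte markers 2 were higher, as were 5 of 6 tested meningeal markers, with sums of 769 to 907 and 20.2 to 33.0 FPKM on chow and 898 to 1116 and 28.4 to 76.7 FPKM on fructose. The meningeal markers Col1a2 and Ogn and the blood marker Hbe1 were listed at 0 in all rats. In the lists of neurons (11 tested), hypothalamic peptide neurons (16), oligodendrocytes (8), microglia (7), endothelium (7), pericytes (9) and choroid plexus (3), limma called 0 genes, with 3, 3, 1, 1, 2, 2 and 1 at an unadjusted p under 0.05. The medians of the log2 difference (fructose minus chow) over these lists were -0.13, -0.24, 0.17, 0.13, 0.11, 0.091 and -0.36, in the same order. Over all rows tested, limma called 1.66% higher and 2.27% lower, and 19.2% were at an unadjusted p under 0.05. The marker lists were fixed with earlier results of these data known. The part of these tissue differences in the values below was not tested. In whole tissue, fewer cells of a type and less RNA per cell cannot be told apart.

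Promoter sequence, which the choice by symbol did not use, was searched for motifs and is given as a description, with no test. The windows compared run from 250 bases before to 50 after the transcript start, from RefSeq on the rat build GRCr8 (the FPKM values were made on rn5), and 67 of the 77 genes had one. Both strands were searched. The motif of nuclear respiratory factor 1 (NRF1), which reads GCGCA, any base, then GCGC, was in 14 of 67 (20.9%), against 4.25% of all 33469 windows in the table and 9.58% of the 9429 windows of genes tested here. The ETS motif CCGGAAG, read by GA-binding protein, was in 20 (29.9%), against 8.75% and 16.7%. The motif AAGATGGC, read by YY1, was in 15 (22.4%), against 3.17% and 5.33%, and in 2 of these a match lay before the start. Matches of different motifs that overlap each other were all counted. At least 1 of these 3 motifs was in 40 of the 67 genes and none of them in 27, and all 3 were in Atp5i. The CCAAT box (CCAAT) was in 31.3%, against 37.5% and 37.0%, the GC box (GGGCGG) in 43.3%, against 33.1% and 62.2%, and the TATA box (TATAAA) in 7.46%, against 14.2% and 6.60%. A match describes the letters only.

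Of the genes with the NRF1 motif, 4 held its exact palindrome, in which the free base is T, all before the start. They are the c, e and OSCP subunit genes of ATP synthase and an accessory subunit gene of complex I. The stretches around it follow, with the palindrome in capitals, which is repeated with overlap in Ndufa11. They lie at chr7:135678235-135678304 (minus strand), chr14:1464754-1464823 (plus), chr11:44657503-44657572 (minus) and chr9:1637487-1637556 (plus), in the order shown.
Atp5g2: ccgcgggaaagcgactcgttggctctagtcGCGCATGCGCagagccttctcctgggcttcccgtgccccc
Atp5i: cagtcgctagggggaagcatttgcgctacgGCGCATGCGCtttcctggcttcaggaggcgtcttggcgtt
Atp5o: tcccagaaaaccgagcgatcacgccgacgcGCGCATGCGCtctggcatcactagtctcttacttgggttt
Ndufa11: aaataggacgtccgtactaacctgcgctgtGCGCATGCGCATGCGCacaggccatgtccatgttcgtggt

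ETS motifs of a gene each from complexes II, III and IV are shown with the motif or its reverse complement in capitals. They lie at chr5:158547796-158547862 (plus), chr1:184599093-184599159 (plus) and chr1:213833644-213833710 (minus).
Sdhb: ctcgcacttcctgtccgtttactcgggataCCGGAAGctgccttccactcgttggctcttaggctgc
Uqcrc2: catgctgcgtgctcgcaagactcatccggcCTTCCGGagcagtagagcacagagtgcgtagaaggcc
Cox8a: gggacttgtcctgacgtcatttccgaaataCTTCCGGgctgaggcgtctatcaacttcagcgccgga

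Of the 6 genes under 20 FPKM with a window, 0 held the NRF1 or the ETS motif and 1 the YY1 motif. The last 100 bases before the start are shown for the muscle isoform genes Cox6a2 (chr1:192219717-192219816, minus) and Cox8b (chr1:205408274-205408373, minus), with CCAAT, GC and TATA boxes on either strand in capitals.
Cox6a2: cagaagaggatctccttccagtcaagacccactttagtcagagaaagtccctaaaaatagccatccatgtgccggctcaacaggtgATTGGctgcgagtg
Cox8b: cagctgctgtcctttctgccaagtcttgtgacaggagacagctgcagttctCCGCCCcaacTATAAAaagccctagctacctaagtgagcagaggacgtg

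The level of the median gene differed between complexes in every rat. The median member stood at 193 FPKM in complex I, 218 in complex II, 229 in complex III, 497 in complex IV and 408 in complex V, as means over 13 rats. These medians take in every matched gene, with Cox4nb, Atp5s, Atp5sl and the low-level genes included. In each of the 13 rats the median gene of complexes IV and V was above that of complexes I, II and III. That of complex IV was also above that of complex V. On chow the median gene of complex IV was at 516 ± 57.4 FPKM (SD, n = 7) and that of complex I at 199 ± 10.4 FPKM (SD, n = 7). On fructose they were 476 ± 43.4 and 189 ± 10.4 FPKM (SD, n = 6). The gene with the highest level was Cox6a1 (1279 FPKM), followed by Atp5b (1135), Cox8a (1082) and Cox4i1 (1076). Within complexes the range was wide: 70 genes lay at or above 20 FPKM, between 30.9 and 1279, and 7 lay below, between 0.961 and 8.79 FPKM. The split at 20 FPKM was chosen after the levels were seen. Over the 70 genes alone, the medians were 197, 218, 229, 704 and 504 FPKM in complexes I to V.

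**Figure D1:**
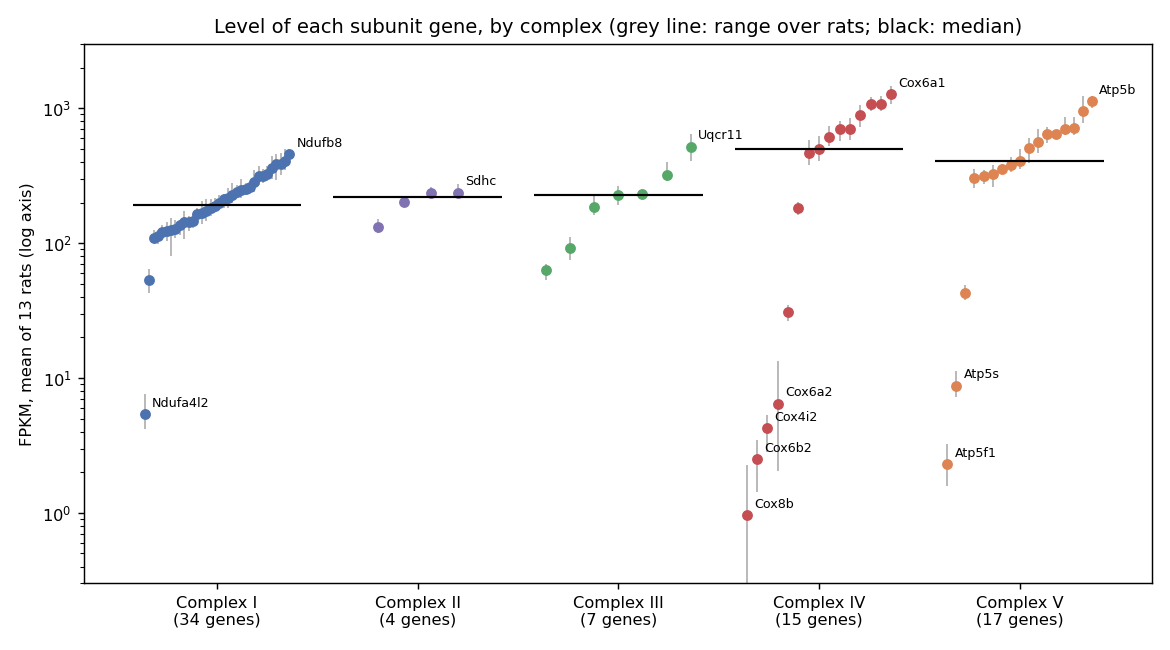
Mean FPKM over 13 rats (log axis) of each of the 77 genes, by complex, with a grey line for the range over rats and a black bar for the median gene of the complex. Complex IV and V genes lie highest, at medians of 497 and 408 FPKM, and 7 genes lie below 20 FPKM. The line of Cox8b, listed at 0 in some rats, runs off the log axis.

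No gene of the 5 complexes differed between diets at the threshold used for all genes. Of the 77, limma called 0 (adjusted p under 0.05 over 11837 rows), against 3.94% of all rows tested, 1.66% higher and 2.27% lower. At an unadjusted p under 0.05 limma found 5 of the 77 (19.2% of all rows), and an exact permutation test (two-sided, all 1716 ways to divide the 13 rats) found 6 (18.8% of all rows). In 0 of the 77 did the diets separate without overlap, which 1.61% of all rows did. The 5 were Cox6a2, Ndufa7, Uqcrc2, Cox6a1 and Ndufa4l2, and Uqcrc1, a core protein of complex III, was the sixth by permutation. The smallest adjusted p by limma was 0.0923, for Cox6a2, the 1 gene with an adjusted p under 0.1 (7.73% of all rows).

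The differences were small as well as below the threshold. The median absolute log2 difference was 0.042 over the 77 genes and 0.090 over all rows tested. These sets were not matched for level: the median of the 77 genes was 237 FPKM, whereas all rows start at a mean of 0.5 FPKM. For the 70 genes at or above 20 FPKM, the 95% interval of the median gene reached 0.15 to either side on the log2 scale, and 56 of the 70 intervals lay wholly between -0.25 and 0.25. The lowest bound among the 70 was -0.33 (Atp5d) and the highest 0.61 (Ndufs3), or 0.796 and 1.53 times the chow level. The median difference was -0.035 over the 77 genes against 0.00085 over all rows tested, and 60 of 77 were below 0, against 49.7% of all rows. The count below 0 moved with the scaling: 42 after quantile normalization and 41 after each rat was scaled to the same total FPKM. The medians were then -0.0074 and -0.0082, but those over all rows moved too, to 0.0059 and 0.026. The median of the 77 genes thus stayed below that of all rows under both scalings. The share of all rows below 0 is not given for these scalings. All these are differences of log2(FPKM + 0.5), fructose minus chow.

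**Figure D2:**
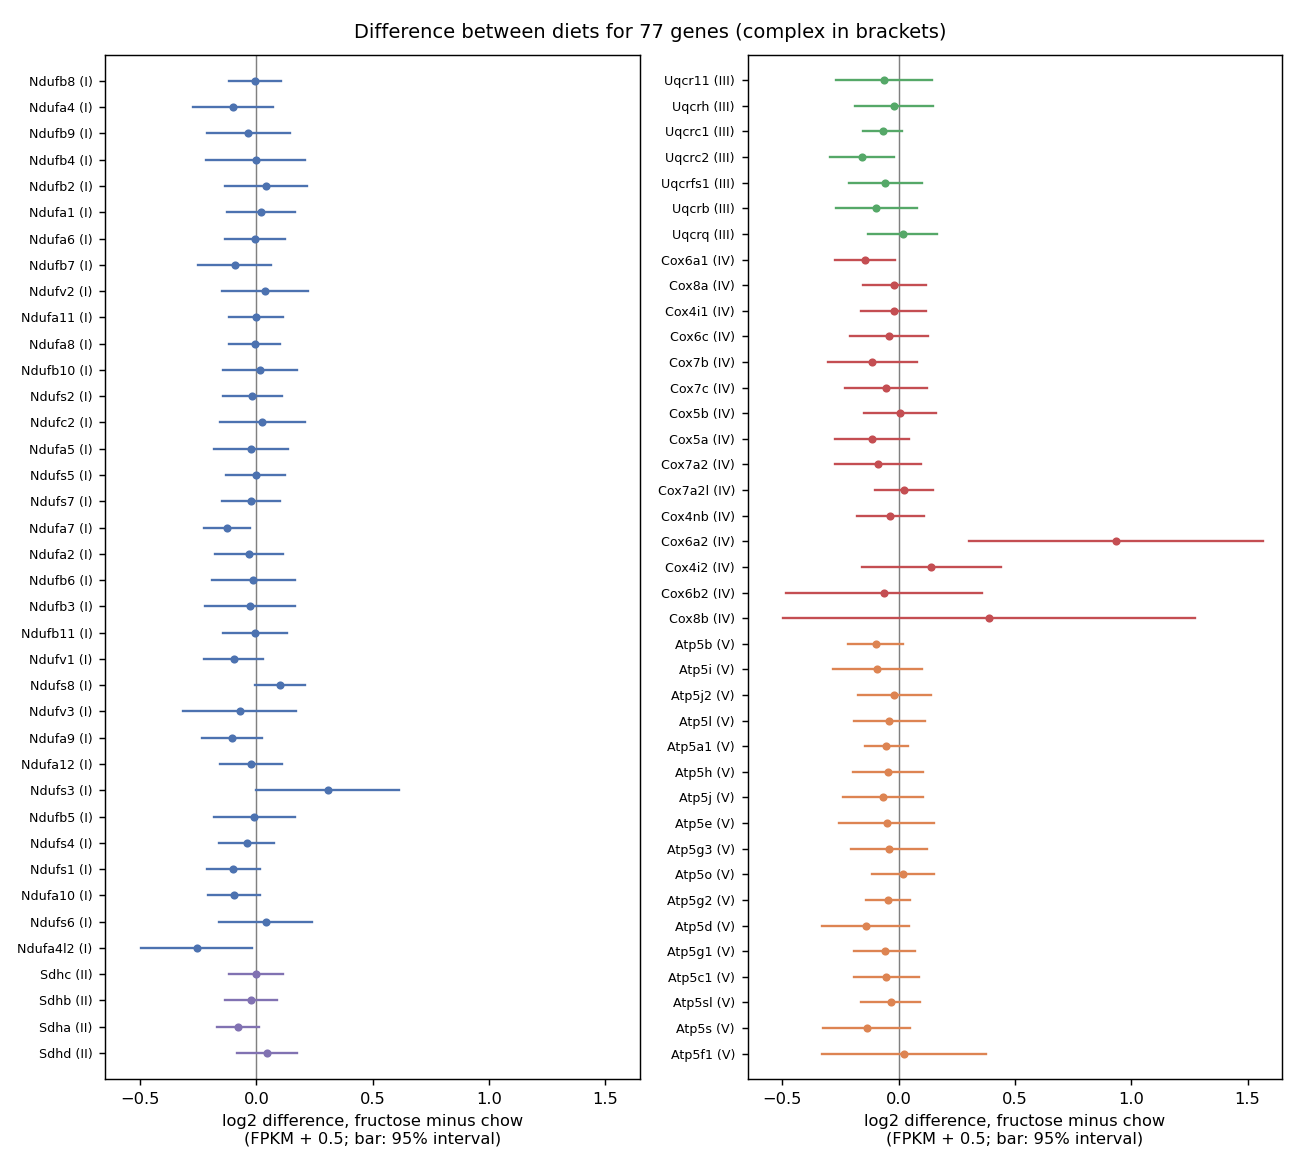
Difference between diets for each of the 77 genes, as log2(FPKM + 0.5) on fructose minus chow (points) with 95% intervals from limma (bars), coloured by complex. Most points lie close to 0, and the widest intervals belong to the low-level genes Cox6a2 and Cox8b.

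In complex I, 0 of 34 genes were called and the median difference was -0.015, which turned to 0.012 after quantile normalization and 0.011 with equal totals. The medians over all rows were 0.00085, 0.0059 and 0.026 in the same settings, in that order. The catalytic core is 7 nuclear genes, which carry the flavin and iron-sulfur centres and bind NADH and ubiquinone. Ndufv1, which holds the NADH site, ranged from 133 to 164 FPKM on chow (median 151) and from 131 to 163 on fructose (median 137). Ndufs1, the largest subunit, ranged from 108 to 126 FPKM on chow (median 119) and from 98.3 to 123 on fructose (median 108). The diets overlapped for both, with differences of -0.10 ± 0.06 and -0.10 ± 0.05 (SE, limma adjusted p = 0.398 and 0.336).

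Ndufs3, another core gene, was the most variable of the 70 genes on chow. Its values were 80.8, 83.7 and 87.6 FPKM in chow replicates 1, 2 and 6 and 119 to 153 FPKM in the other 4 chow rats, with a coefficient of variation of 26.4%. All 6 fructose rats lay between 125 and 149 FPKM, inside the chow range. Its difference of 0.31 ± 0.14 (SE, limma adjusted p = 0.261) was the largest among the 70. Ndufs8, an iron-sulfur core subunit, had a median of 143 FPKM on chow and 149 on fructose, with 2 of 6 fructose rats above all chow rats (0.10 ± 0.05, limma adjusted p = 0.285). Both were singled out after their values were seen.

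Among the accessory genes of complex I, Ndufb8, of the membrane arm, had the highest level. It ranged from 413 to 498 FPKM on chow (median 444) and from 425 to 486 on fructose (median 452). Ndufa7 had the smallest p in this complex, at 181 to 215 FPKM on chow (median 194) and 170 to 193 on fructose (median 180). Of the fructose rats 3 of 6 were below all chow rats, and the difference was -0.13 ± 0.05 (SE), with a limma adjusted p of 0.151. Ndufa4 stood at 363 to 499 FPKM on chow and 350 to 438 on fructose (-0.10 ± 0.08). Its paralog Ndufa4l2, known as a hypoxia-inducible gene, was far lower, at 4.61 to 7.66 FPKM on chow (median 5.76) and 4.20 to 5.88 on fructose (median 4.63). Here too 3 of 6 fructose rats were below all chow rats, and the difference was -0.26 ± 0.11 (SE, limma adjusted p = 0.220).

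Complex II had the most even levels across rats, with a median coefficient of variation of 5.48% on chow and 7.53% on fructose. Sdha, the flavoprotein that oxidises succinate, ranged from 198 to 218 FPKM on chow (median 209) and from 184 to 215 on fructose (median 193). Of the fructose rats 4 of 6 were below all chow rats, with a difference of -0.08 ± 0.04 (SE, limma adjusted p = 0.340). Sdhb, the iron-sulfur subunit, had medians of 236 FPKM on chow and 232 on fructose. The membrane anchors Sdhc and Sdhd had medians of 234 and 124 FPKM on chow and of 230 and 132 FPKM on fructose. Sdhd was thus 0.05 ± 0.06 above chow and the other 3 genes were at or below it, none by more than 0.08.

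Of the 7 genes of complex III, 0 were called and 6 of 7 differences were below 0, against 49.7% of all rows. The median was -0.064, and it was -0.035 after quantile normalization and -0.038 with equal totals. Uqcrc2, a core protein, ranged from 219 to 264 FPKM on chow (median 234) and from 194 to 241 on fructose (median 211). In 3 of 6 fructose rats it was below all chow rats, with a difference of -0.16 ± 0.06 (SE, limma adjusted p = 0.190). This was the lowest difference among the 70 genes at or above 20 FPKM. The partner core protein Uqcrc1 varied little, from 215 to 248 FPKM on chow (median 239) and from 219 to 234 on fructose (median 224), a difference of -0.07 ± 0.04. Uqcrfs1, the Rieske iron-sulfur protein, had medians of 185 and 182 FPKM (-0.06 ± 0.07). The small subunits ran from Uqcrq, at a mean of 63.4 FPKM, to Uqcr11, at 521 FPKM, and differed by 0.02 ± 0.07 and -0.06 ± 0.10.

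Complex IV held both the highest and the lowest level of the 77 genes, and 0 of its 15 genes were called. Several of its subunits have isoforms known to be restricted to certain tissues. The median of the 9 widely expressed genes was 706 FPKM. Cox6a1, the broad isoform of subunit VIa, ranged from 1197 to 1464 FPKM on chow (median 1356) and from 1076 to 1316 on fructose (median 1216). In 2 of 6 fructose rats it was below all chow rats (-0.15 ± 0.06, SE, limma adjusted p = 0.204). Cox4i1 and Cox8a, the broad isoforms of subunits IV and VIII, differed by -0.02 ± 0.06 each, with chow medians of 1096 and 1099 FPKM and fructose medians of 1056 and 1086. Cox5a, a subunit with 1 form, had medians of 517 and 488 FPKM (-0.12 ± 0.08), and Cox7a2 had medians of 478 and 448 (-0.09 ± 0.09). Cox7a2l stood at 179 and 185 FPKM (0.02 ± 0.06).

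The restricted isoforms of complex IV stood at 0.961 to 6.47 FPKM as means over 13 rats, against 466.4 to 1279 for the widely expressed genes. Cox6a2, known from striated muscle and from parvalbumin neurons of the brain, was 6.03, 3.40, 10.1, 2.05, 3.45, 4.01 and 2.88 FPKM in chow replicates 1 to 7 and 11.01, 8.30, 4.91, 5.45, 13.4 and 9.16 FPKM in fructose replicates 1 to 6. Most fructose rats lay above most chow rats, with 6 of 6 above the chow mean and 2 of 6 above all chow rats, but chow replicate 3 lay above 4 of 6 fructose rats and chow replicate 1 above 2 of 6. The difference of 0.93 ± 0.30 (SE) had a 95% interval of 0.30 to 1.56 and did not pass (limma adjusted p = 0.0923, exact permutation p = 0.0216). Without chow replicate 3 it was 1.14 and passed (limma adjusted p = 0.0384), and without each of the other 12 rats in turn the adjusted p lay between 0.0606 and 0.174. At this level the added 0.5 matters, and the difference was 1.01 with 0.1 added and 0.86 with 1 added.

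Markers of cells known for Cox6a2 are given for the same rats. The 6 markers of parvalbumin and fast-spiking neurons summed to 259 to 478 FPKM on chow and 277 to 582 on fructose. Of these, 1 was called, Kcnc2, and it was lower (2.27% of all rows were called lower). Kcnc2 is also in the list of thalamus markers, of which 8 of 12 were lower. Pvalb itself had medians of 136 FPKM on chow and 161 on fructose (0.54 ± 0.30, SE, limma adjusted p = 0.358). Of 9 matched striated muscle markers Myl2 was listed at 0 in all rats, and the sum was 14.6 to 22.6 FPKM on chow and 15.4 to 24.4 on fructose. Among the 5 of them tested, limma called 0, with 2 at an unadjusted p under 0.05 (19.2% of all rows tested were at that level). Their part in the Cox6a2 values was not tested.

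Cox4i2, known from lung and from cells of small vessels, ranged from 2.94 to 5.06 FPKM on chow (median 4.16) and from 2.83 to 5.31 on fructose (median 4.88), a difference of 0.14 ± 0.14, with 3 of 6 fructose rats above all chow rats. Cox6b2, known from testis, had medians of 2.91 and 2.71 FPKM (-0.06 ± 0.20). Cox8b, known from muscle, was listed at 0 in chow replicates 1 and 6 and fructose replicate 5, and at most at 1.62 FPKM in chow and 2.26 in fructose rats (0.39 ± 0.42). An exact 0 in such a table may be a failed estimate. No matching row carried the symbol Cox6b1 or Cox7a1, so these were not analysed here.

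**Figure D3:**
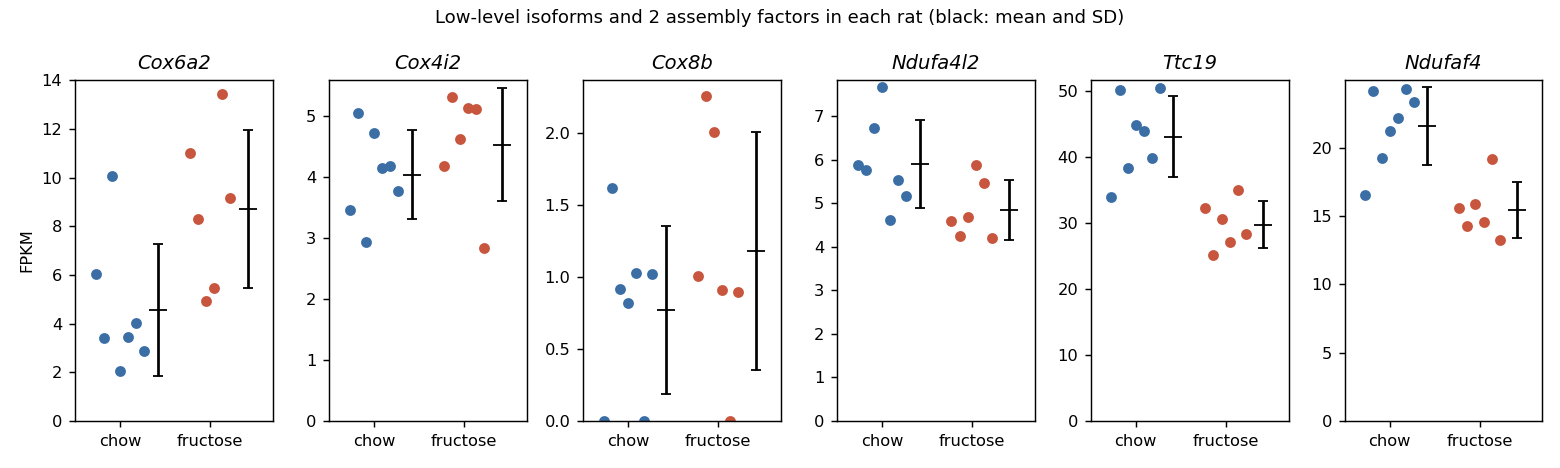
FPKM in each rat (points, chow left and fructose right in each panel) with mean and SD (black) for 4 low-level isoform genes and for the assembly factors Ttc19 and Ndufaf4. Cox6a2 is higher in most fructose rats but the diets overlap, with chow replicates 1 and 3 at 6.03 and 10.1 FPKM, and each assembly factor has 5 of 6 fructose rats below all chow rats.

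In complex V, 0 genes were called and 15 of 17 differences were below 0, against 49.7% of all rows. The 15 include Atp5s and Atp5sl, which are not counted as subunits. The median was -0.052, and it was -0.042 after quantile normalization and -0.026 with equal totals. The counts below 0 after these scalings are not given by complex. The catalytic head is made of the alpha to epsilon subunits. Atp5b, the catalytic beta subunit, ranged from 1083 to 1229 FPKM on chow (median 1185) and from 1003 to 1209 on fructose (median 1085). In 3 of 6 fructose rats it was below all chow rats (-0.10 ± 0.06, SE, limma adjusted p = 0.356). Atp5a1, the alpha subunit, lay at 630 to 671 FPKM on chow and 593 to 677 on fructose, and its coefficient of variation of 2.23% on chow was the smallest of the 70 genes. Although the protein subunits alpha and beta are present in equal number, Atp5b stood at 1135 FPKM and Atp5a1 at 647 as means over 13 rats. The gamma subunit gene Atp5c1 had medians of 305 and 306 FPKM (-0.05 ± 0.07). The delta subunit gene Atp5d ranged from 261 to 378 FPKM on chow and from 265 to 352 on fructose (-0.14 ± 0.09, SE, limma adjusted p = 0.414).

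Atp5g1, Atp5g2 and Atp5g3 encode the same mature c subunit, which forms the rotor ring in the membrane. Their means over 13 rats were 317, 356 and 408 FPKM, so the 3 genes stood within a narrow range. Their differences were -0.06 ± 0.06, -0.05 ± 0.05 and -0.04 ± 0.08. Atp5f1, the b subunit of the peripheral stalk, stood at 2.29 FPKM, with 1.97 FPKM in its other row, whereas the other stalk genes Atp5h, Atp5j and Atp5o stood at 641, 563 and 378 FPKM. Many genes of this family have close copies in the genome, and the sources do not say how reads that fit several places were counted. The level of Atp5f1 is thus uncertain, and comparisons of level between other genes and between complexes carry the same limit.

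Most of the variation among rats was shared by the genes of all 5 complexes. Within diets, over the 70 genes at or above 20 FPKM, 58.4% of the variance lay along a first principal component, on which 67 of 70 genes pointed the same way (Sdha, Ndufs1 and Cox4nb did not). The component was not computed for other genes of similar level, so whether this is particular to the complexes was not tested. Chow replicate 6 had 65 of 70 genes above the chow mean and chow replicate 7 had 61, whereas chow replicate 3 had 7 and chow replicate 1 had 11. Among fructose rats, replicate 2 had 61 genes above the diet mean and replicate 6 had 5. Over the genes at or above 20 FPKM, chow replicate 6 was the highest chow rat in all 5 complexes and fructose replicate 6 the lowest fructose rat in all 5.

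This shared pattern went along with the total FPKM of the rats. The 70 genes are themselves part of that total, so some of this link was fixed in advance. Their sums were 23350 to 28996 FPKM on chow and 22302 to 26745 FPKM on fructose. Chow replicate 6 had the highest total of all 13 rats (608058) and fructose replicate 6 the lowest (556902), and among fructose rats replicate 2 had the highest. The mean deviation of the 70 genes from their diet mean was 0.16 on the log2 scale in chow replicate 6 and -0.13 in fructose replicate 6, and its SD over rats was 0.091. With each rat scaled to the same total, these became 0.10, -0.084 and 0.060, so part of the pattern remained. Genes of 1 rat share 1 library, so the 70 deviations of a rat are not independent of each other.

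**Figure D4:**
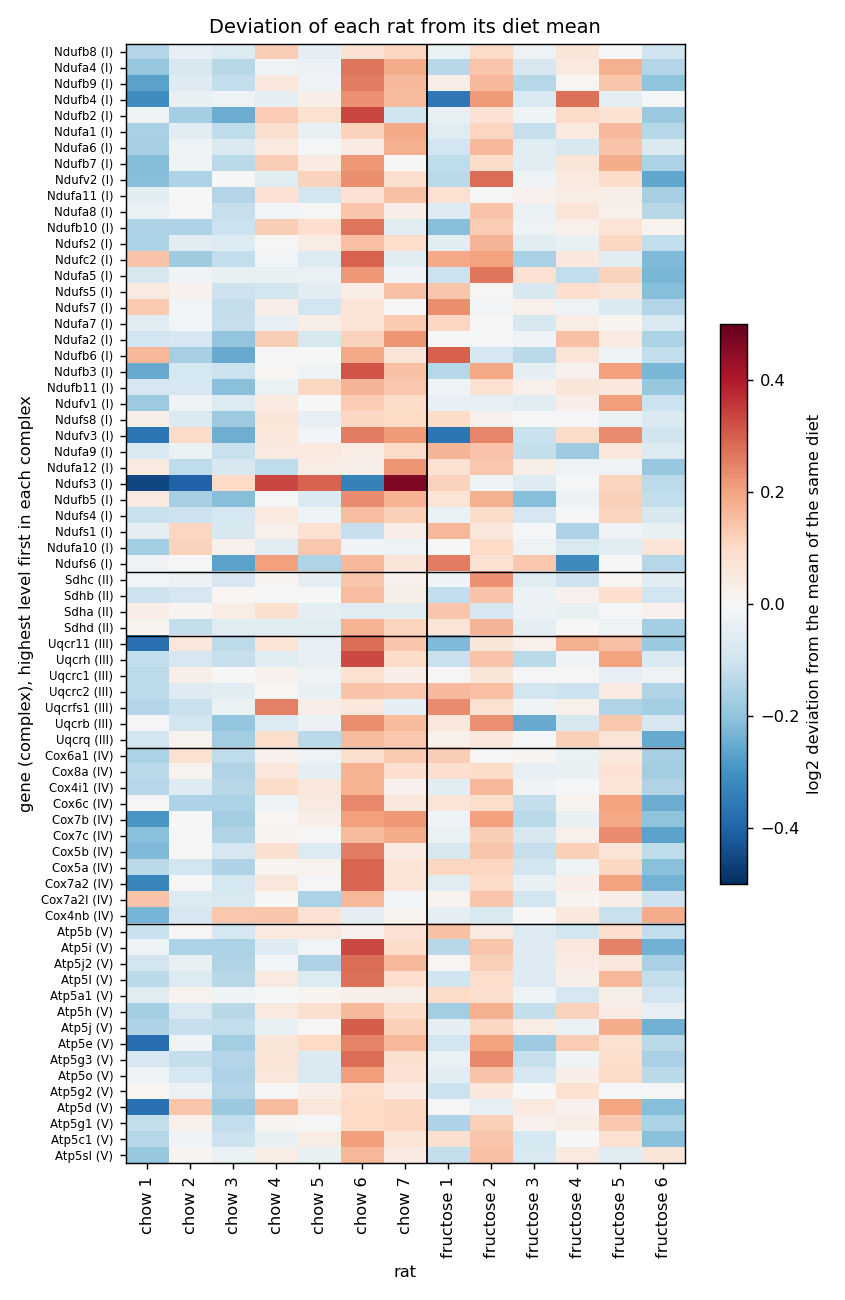
Deviation of log2(FPKM + 0.5) in each rat (columns) from the mean of its diet, for 70 genes (rows, grouped by complex, highest level first). Chow replicates 6 and 7 and fructose replicate 2 are above their diet mean in 65, 61 and 61 of 70 genes, and fructose replicate 6 in 5.

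Taken as the mean log2(FPKM + 0.5) of its genes at or above 20 FPKM, each complex overlapped between diets. With 7 chow and 6 fructose rats, complex I stood at 7.64 ± 0.10 (SD) against 7.63 ± 0.08. Complex II stood at 7.62 ± 0.05 and 7.61 ± 0.07, and complex III at 7.61 ± 0.11 and 7.55 ± 0.09. Complex IV stood at 8.999 ± 0.114 and 8.944 ± 0.098, and complex V at 8.81 ± 0.11 and 8.75 ± 0.10. The differences, between -0.064 and -0.015, were smaller than the SD between rats of the same diet for each of the 5 complexes. With the low-level genes included, the difference of complex IV was 0.053, of the other sign.

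**Figure D5:**
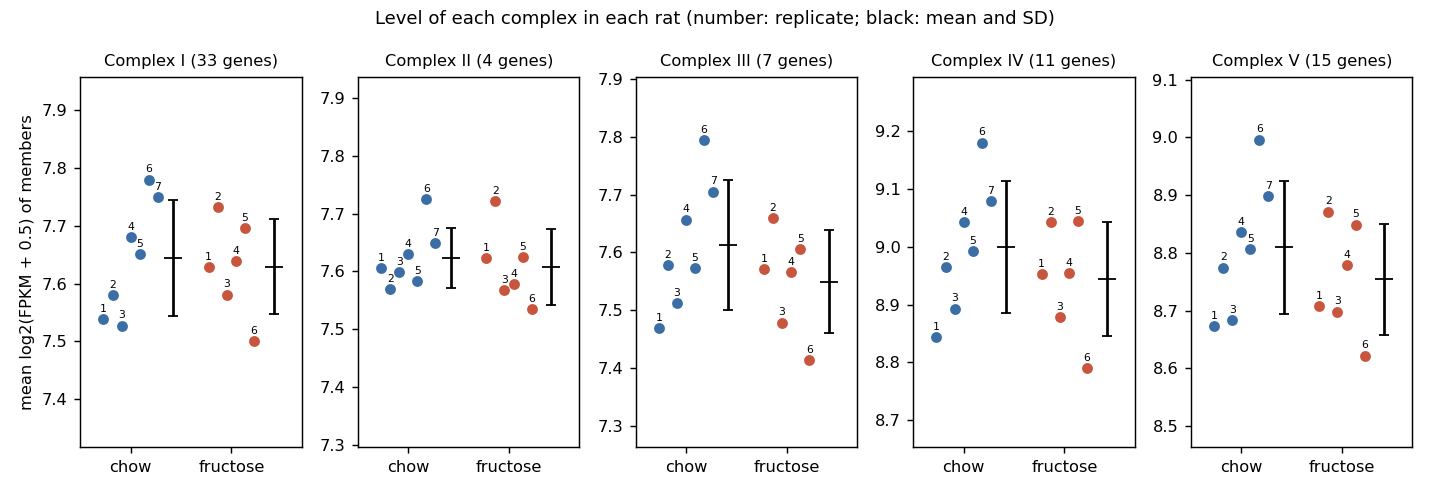
Mean log2(FPKM + 0.5) of the genes at or above 20 FPKM of each complex in each rat (points, numbered by replicate), with mean and SD per diet (black). In each panel the diets overlap, chow replicate 6 is the highest chow rat and fructose replicate 6 the lowest fructose rat.

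Genes that build, supply or regulate the complexes were taken from fixed lists. Of 35 tested assembly factors 2 were called lower on fructose and 33 did not pass (2.27% of all rows were called lower). At an unadjusted p under 0.05 limma found 4 of the 35, against 19.2% of all rows tested. The list median was -0.061, against 0.00085 over all rows. Ttc19, an assembly factor of complex III, ranged from 33.9 to 50.4 FPKM on chow (median 43.9) and from 25.1 to 35.0 on fructose (median 29.5), and 5 of 6 fructose rats were below all chow rats. It fell by 0.52 on the log2 scale (-0.52 ± 0.10, SE, limma adjusted p = 0.0154), and the call held without each of the 13 rats in turn, with an adjusted p of at most 0.0453. Ndufaf4, an assembly factor of complex I, ranged from 16.5 to 24.3 FPKM on chow (median 22.2) and from 13.3 to 19.2 on fructose (median 15.1), with 5 of 6 fructose rats below all chow rats (-0.47 ± 0.10, SE, limma adjusted p = 0.0258). Its call was lost without chow replicate 2 (adjusted p = 0.0577), 4 (0.0517) or 7 (0.0503) or fructose replicate 2 (0.0516), 4 (0.0636) or 6 (0.0602). By the exact permutation test the adjusted p of Ttc19 and Ndufaf4 was 0.0821 and 0.0966, where 0 of all rows pass.

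The other lists held 0 called genes by limma. Of 18 tested regulators of mitochondrial biogenesis 1 was at an unadjusted p under 0.05, against 19.2% of all rows tested. Ppargc1a, the coactivator PGC-1 alpha, had medians of 8.01 FPKM on chow and 6.91 on fructose (-0.06 ± 0.16), Nrf1 had 6.34 and 7.52 (0.11 ± 0.08), and Gabpa, the DNA-binding subunit of GA-binding protein, had 5.69 and 5.71 (0.04 ± 0.07). Tfam, which packages mitochondrial DNA, had 30.7 and 30.8 FPKM (0.04 ± 0.06). Among 14 tested electron carriers and ubiquinone synthesis genes 1 was at an unadjusted p under 0.05, and Cycs, cytochrome c, had medians of 165 and 141 FPKM (-0.19 ± 0.10, SE, limma adjusted p = 0.331). Of 4 tested genes outside the symbol pattern, among them Cyc1, the cytochrome c1 of complex III (267 and 245 FPKM, -0.09 ± 0.05), 0 were at that level. Transcripts encoded in mitochondrial DNA were not analysed here.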

How the data were processed

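RNA sequencing libraries of 13 rat hypothalami (7 chow, 6 fructose) were used as FPKM deposited by the authors in 1 table. The tools named in the submitters' processing notes are Cufflinks 2.1.1, Cuffdiff and STAR 2.3.0e, on build rn5; their settings are not stated there. The depth is unknown, so precision rests on the spread between rats, and replicate numbers follow accession order.

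Values were taken as log2(FPKM + 0.5). All 11837 rows with a mean of at least 0.5 FPKM were fitted by limma (version 3.58.1, R 4.3.3; two-sided, moderated with an intensity trend), with Benjamini-Hochberg adjustment over all of them and calls at an adjusted p under 0.05. Beside it stands an exact permutation test over 1716 splits, whose smallest p is 0.000583. The fit was tested on simulated data. Promoters came from RefSeq tables.

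Genes, lists and tests were chosen with earlier results of these data known. Named genes are core subunits, isoform sets, the highest and lowest level and the 2 smallest p in each complex, any called gene, and up to 2 called genes of each list; others were singled out after their values were seen. Alternatives were other pseudocounts (0.1, 1), filters (none, 2 FPKM), scalings (quantile, median-ratio, equal totals), array weights, robust moderation, an adjusted p under 0.1, summed rows and each rat left out.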

Additional observations from a re-analysis of the deposited data

Results flagged for a closer look

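Over 80 groups checked (33 genes of the complexes, 2 assembly factors and 5 complex levels, each on both diets), 3 rats stood apart from the others of their diet by Dixon's test at 95%, which chance alone gives in about 1 group in 20. Sdhc was 277 FPKM in fructose replicate 2, against 220 to 238 in the other 5 fructose rats. Uqcrq was 53.3 FPKM in fructose replicate 6, against 63.2 to 69.0 in the others, and that rat was low across the complexes. The level of complex IV over all 15 genes was 6.81 in chow replicate 1, against 6.98 to 7.07 in the other chow rats. Cox8b was listed at 0 in that rat, but also in chow replicate 6, where the level over all 15 genes was 7.05. Over the 11 genes at or above 20 FPKM the level of chow replicate 1 was 8.84, against 8.89 to 9.18.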

How the results depend on the processing

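The count of genes called, 0 of 77 by limma, was 1 with an adjusted p under 0.1 and between 0 and 1 with each rat left out; in both cases the gene was Cox6a2, and the rat was chow replicate 3. It was 0 under every other alternative listed. By the exact permutation test it was 0 too, but there 0 of all rows pass, so that count says nothing about these genes. The number of genes under 0.05 before adjustment was 5 of 77, against 19.2% of all rows tested. It ranged from 3 to 8 with a rat left out and reached 12 with array weights. The share of all rows at that level is not given for these alternatives, so these counts cannot be compared with all rows. With array weights, the calls over all rows at an adjusted p under 0.05 rose too. The median difference of -0.035 lay between -0.059 (without fructose replicate 2) and -0.0013 (without fructose replicate 6) with a rat left out, and between -0.036 and -0.0074 otherwise. The medians of complexes I, II and IV took the other sign in 5, 5 and 1 of 22 alternatives, reaching at most 0.015, and those of III and V in 0. With equal totals the median over all rows was itself 0.026, above the 0.011 and 0.014 of complexes I and II. Of 33 named genes of the complexes, 10 took the other sign under some alternative, all with a main difference of at most 0.064, and 0 of them while called. Ttc19 and Ndufaf4 kept their direction under all alternatives. With a rat left out, the calls over all rows ranged from 83 to 859, of 11824 to 11847 rows tested. No paired analysis was possible because the 2-part numbers in the titles have no stated meaning and no first number is shared between diets (chow replicates 1 and 2 share theirs). Without read counts, the level of genes near 1 FPKM cannot be given a counting error.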

Other observations

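Genes that feed the complexes or carry their products were also measured. Of 24 tested genes of the citric acid cycle and pyruvate dehydrogenase, limma called 0, with 8 at an unadjusted p under 0.05 (19.2% of all rows tested were at that level), and the list median was -0.096. Cs, citrate synthase, ranged from 174 to 193 FPKM on chow (median 186) and from 157 to 177 on fructose (median 171), a difference of -0.12 ± 0.04 (SE, limma adjusted p = 0.122). Of 12 tested carriers, channels and uncoupling proteins, 0 were called and 3 were at an unadjusted p under 0.05. Slc25a4, an exchanger of ADP and ATP, had medians of 887 and 857 FPKM (-0.06 ± 0.06). Ucp2, an uncoupling protein known from microglia and other cells, had medians of 23.4 and 29.95 FPKM (0.28 ± 0.10, SE, limma adjusted p = 0.141). Atpif1, the inhibitor of ATP synthase, had medians of 459 and 448 FPKM (-0.04 ± 0.07).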
